A study of Mus musculus with 6 samples.

Results

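The genes described here are 9 cathepsins and progranulin (Ctsa, Ctsb, Ctsc, Ctsd, Ctsh, Ctsk, Ctsl, Ctss, Ctsz and Grn), 10 of the 22180 genes measured in double-positive thymocytes with and without Ets1. They were listed by name as proteins of lysosomal proteolysis, and each was read from the probe set annotated to that gene alone. Every member had exactly 1 such probe set, so no choice among probe sets was needed, and no filter on dim probe sets was applied. There were 3 arrays of Ets1-/- mice and 3 of wild-type mice, all C57BL/6 and 5 to 6 weeks old. The labels name no treatment of the mice and do not describe the Ets1 allele further. In both groups thymocytes were crosslinked with formaldehyde before CD8+ and then CD4+ cells were taken with magnetic beads, and total RNA was hybridised to single-channel Affymetrix arrays. The labels speak of cohorts of litter mates as biological replicates. They do not say whether an array held 1 animal or a pool, so the p-values speak only of the variation among these 6 arrays.

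Cathepsins are proteases that are made as inactive precursors, carried to the endosome and lysosome, and activated there at acid pH. Most belong to the papain family of cysteine proteases, Ctsd is an aspartic protease and Ctsa a serine carboxypeptidase. In the thymus they are known above all from antigen-presenting cells, where they cut the invariant chain and antigens before peptides are loaded on MHC class II: Ctsl does this in cortical epithelium, and Ctss in dendritic cells, B cells and macrophages. Progranulin, the product of Grn, is a secreted protein that is carried to the lysosome and cut into granulins there.

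In the arrays labelled Ets1-/-, Ctss, Grn, Ctsh, Ctsc and Ctsb were 3.47 to 19.0 times as high as in wild type, while Ctsl, Ctsd, Ctsa and Ctsk differed by 1.04- to 1.33-fold and did not pass the test. Ctsz was 2.24 times as high without passing it. Of the 10 members, 5 rose and 0 fell at a limma adjusted p under 0.05, where 1.29% of all 22180 genes rose and 0.568% fell. All 3 Ets1-/- values lay above all 3 wild-type values for 7 members, and for 5.76% of all genes. The median log2 fold change of the 10 members was 1.48, against -0.22 for all genes. The members were listed with earlier results of these data known, so these counts describe the list and are no test of it. In bulk RNA of this kind, more cells of a type and more RNA per cell cannot be told apart.

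One array stood apart in overall level. The median log2 signal of all probe sets was 3.66 on Ets1-/- replicate 1 and 4.19 to 4.33 on the other 5 arrays, and that array was the lowest of its group for 79.6% of all genes. The median log2 fold change of all genes, -0.22, was -0.02 without it and -0.01 after centring each array on its median. Ets1 itself had log2 signals of 9.27, 9.22 and 8.79 in Ets1-/- and 9.11, 9.32 and 9.17 in wild type, and its adjusted p was 0.860. Its probe set did not separate the groups. No source used here says whether it lies in the deleted part, so it does not check the labels, and directions refer to the arrays as labelled. The 10 measured markers of double-positive thymocytes had 0 called members by limma (0 at an unadjusted p under 0.05), with log2 fold changes from -0.46 to 0.16. Dntt and Rag2, which act in receptor gene rearrangement, came closest to the threshold, at -0.46 and -0.29. Dntt averaged 10.41 ± 0.017 in Ets1-/- and 10.87 ± 0.032 in wild type (SD, n = 3 each), without overlap, and was called under 3 of 13 other settings of the processing (the trend and robust prior, no moderation, and the pseudocount with quantile normalization).

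**Figure D1:**
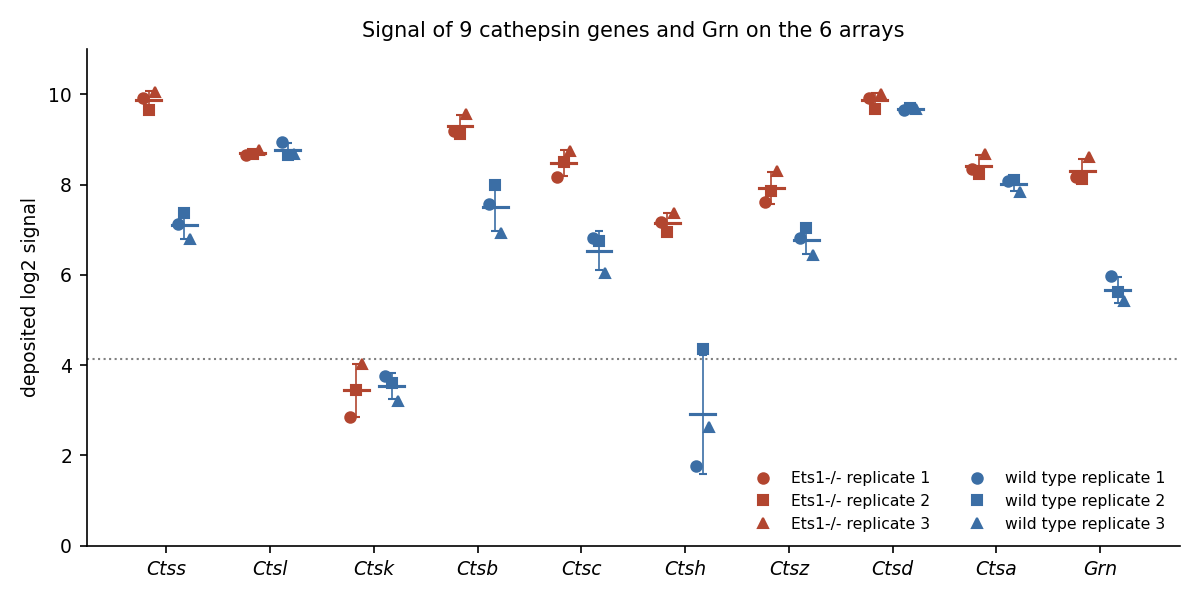
Deposited log2 signal of the 10 genes on each array, with the mean and SD of 3 arrays per group; the dotted line is the median of all probe sets, 4.13. Ctss, Ctsb, Ctsc, Ctsh, Ctsz, Ctsa and Grn have no overlap between Ets1-/- (left of each pair) and wild type (right), while Ctsl, Ctsk and Ctsd overlap.

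Among the papain-like endopeptidases, Ctss showed the smallest p of the 10 members. This enzyme removes the last piece of the invariant chain in professional antigen-presenting cells and, unlike most cathepsins, stays active near neutral pH. Its log2 signal was 9.92, 9.66 and 10.06 in the 3 Ets1-/- samples, against 7.13, 7.37 and 6.79 in the 3 wild-type samples. The groups lay far apart relative to the spread within each, and Ctss rose by 2.78 ± 0.25 on the log2 scale (SE; 95% interval 2.20 to 3.36; limma adjusted p = 0.00197). Ctsb, a broadly expressed enzyme that cuts both inside proteins and at their carboxy end, had log2 signals of 9.18, 9.12 and 9.57 in Ets1-/- and 7.58, 7.98 and 6.94 in wild type. Its values were close together in Ets1-/- (SD 0.24) and more scattered in wild type (SD 0.53), and the log2 fold change was 1.79 ± 0.31 (SE; adjusted p = 0.0342).

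The other endopeptidases of the papain family did not pass the test. Ctsl, the invariant-chain protease of cortical thymic epithelium, which many other cells also make, had log2 signals of 8.66, 8.67 and 8.78 in Ets1-/- and 8.94, 8.65 and 8.69 in wild type. The groups overlapped, and the 95% interval of the log2 fold change, -0.55 to 0.44, leaves room for changes of that size but not for one like that of Ctss. The point estimate of -0.05 was 0.16 and 0.01 after median centring and cyclic loess, so it carries no direction. Ctsk, the collagen-degrading protease of osteoclasts, had log2 signals of 2.86, 3.44 and 4.03 in Ets1-/- and 3.77, 3.61 and 3.22 in wild type. All 6 values lay below 4.13, the median of all probe sets, and the groups overlapped. Its log2 fold change was -0.09 (95% interval -0.87 to 0.69), and it was 0.15, 0.12 and 0.18 under quantile normalization, median centring and cyclic loess.

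Ctsc, Ctsh and Ctsz are papain-like exopeptidases, which trim proteins from one end. Ctsc, or dipeptidyl peptidase I, activates granzymes and the serine proteases of neutrophils and mast cells. It had log2 signals of 8.17, 8.50 and 8.75 in Ets1-/- and 6.81, 6.76 and 6.04 in wild type. The lowest Ets1-/- value was above the highest wild-type value by more than the range of either group, and Ctsc rose by 1.94 ± 0.30 on the log2 scale (SE; adjusted p = 0.0192). Ctsh, an aminopeptidase, had the largest log2 fold change of the 10, 4.25 ± 0.59 (SE; 95% interval 2.88 to 5.62; adjusted p = 0.0125). Its log2 signal was 7.18, 6.94 and 7.36 in Ets1-/-, against 1.76, 4.36 and 2.62 in wild type.

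The wild-type arrays barely registered Ctsh: 2 of the 3 values lay below the median of all probe sets, and their SD of 1.32 was the widest of any member in either group. With a pseudocount of 16 on the linear scale its log2 fold change was 2.67, so the size rests on the low end of the scale. Ctsz, a carboxypeptidase also called cathepsin X, had log2 signals of 7.61, 7.87 and 8.31 in Ets1-/- and 6.82, 7.03 and 6.44 in wild type. These groups did not overlap, but the log2 fold change of 1.16 ± 0.28 (SE) had an adjusted p of 0.102. It passed under 9 of 13 other settings of the processing, and under 0 of 6 fits that left out 1 array.

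The remaining proteases are not of the papain family. Ctsd, the main aspartic protease of the lysosome, had log2 signals of 9.92, 9.68 and 10.01 in Ets1-/- and 9.65, 9.70 and 9.67 in wild type. The wild-type values were the tightest of any member (SD 0.025), 1 Ets1-/- value fell among them, and the log2 fold change was 0.20 (95% interval -0.29 to 0.70; adjusted p = 0.700). Ctsa, which besides its peptidase activity protects lysosomal neuraminidase and beta-galactosidase from degradation, had log2 signals of 8.35, 8.23 and 8.68 in Ets1-/- and 8.09, 8.10 and 7.83 in wild type. The groups were separated by a small margin, and the log2 fold change of 0.42 (95% interval -0.12 to 0.96) did not pass (adjusted p = 0.509). Progranulin stood out from these: Grn had log2 signals of 8.16, 8.12 and 8.60 in Ets1-/-, against 5.98, 5.62 and 5.41 in wild type. Both groups were tight, and Grn rose by 2.62 ± 0.26 on the log2 scale (SE; 95% interval 2.02 to 3.23; adjusted p = 0.00278).

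Not all 5 calls were equally firm. Ctss and Grn kept theirs whichever of the 6 arrays was left out, Ctsh lost it without Ets1-/- replicate 1 or 2, Ctsc kept it without Ets1-/- replicate 1 or wild-type replicate 1 alone, and Ctsb without wild-type replicate 2 alone. The count of members that rose was 3, 2 and 3 without Ets1-/- replicates 1, 2 and 3, and 4, 4 and 3 without wild-type replicates 1, 2 and 3. Of all 22180 genes, 276, 145 and 176 rose without Ets1-/- replicates 1, 2 and 3. Without wild-type replicates 1, 2 and 3, 219, 223 and 203 rose, against 287 with all 6 arrays. The count of members was 2 (Ctss and Grn) when every probe set was tested as a feature of its own, where 269 of 41345 rose.

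**Figure D2:**
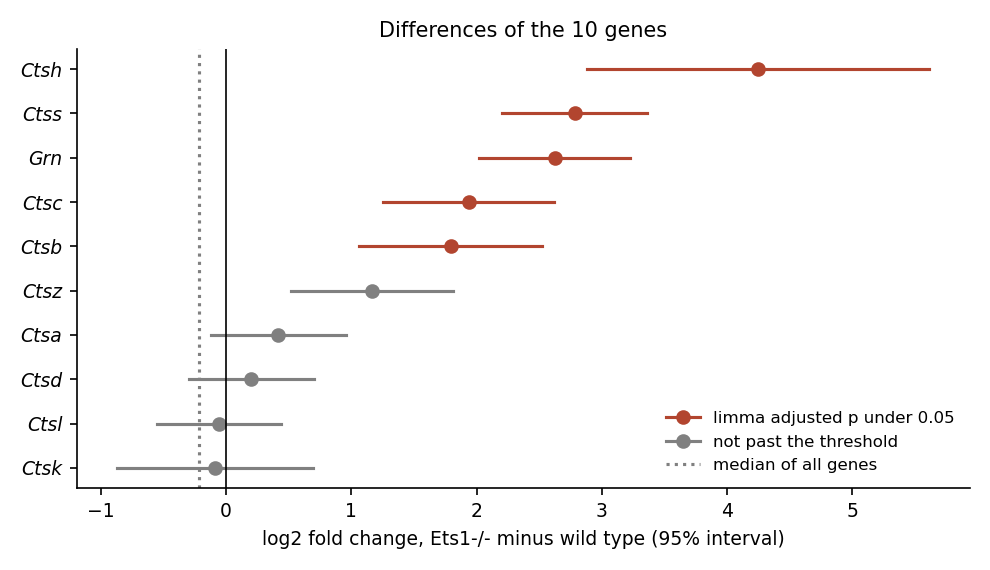
Log2 fold change of each gene, Ets1-/- minus wild type, with the 95% interval from limma; red marks an adjusted p under 0.05 and the dotted line the median of all genes, -0.22. The intervals of Ctsh, Ctss, Grn, Ctsc, Ctsb and Ctsz lie above 0, and those of Ctsa, Ctsd, Ctsl and Ctsk include it.

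Within each group the members often shared their lowest array, a pattern noticed after the values were seen, and the counts depend on the scaling. After each array was centred on its median, Ets1-/- replicate 2 was the lowest of its group for 10 of 10 members and 39.1% of all genes, and wild-type replicate 3 for 9 of 10 members and 43.8% of all genes. In the uncentred values these counts were 6 of 10 (8.96% of all genes) and 7 of 10 (34.5%). Ets1-/- replicate 2 and wild-type replicate 3 had the highest medians of their groups (4.31 and 4.33), so centring subtracts the most from them. Most members are bright, so the share of all genes is not a background matched in level. After centring, the thymocyte genes Cd3d, Cd3e, Cd3g, Cd8a, Rag2 and Dntt were also lowest on these arrays. Within Ets1-/-, Cd4, Cd8b1, Themis and Cd1d1 were lowest on replicate 3. The highest Ets1-/- array changed with the scaling: after centring it was replicate 1 for 7 and replicate 3 for 3 members, and without centring replicate 3 for 10. Of 14 macrophage markers, after centring, Ets1-/- replicate 2 was lowest for 13 and wild-type replicate 3 for 9, while the highest Ets1-/- array was replicate 1 for 6 and replicate 3 for 8.

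Ctss and Ctsk are next to each other on chromosome 3, and only Ctss was called. The difference between the 2 log2 fold changes was not itself tested, although their 95% intervals do not overlap. Arnt, the gene on the other side of Ctsk, had a log2 fold change of -0.01 and Hormad1, beyond Ctss, one of -0.67 (adjusted p = 0.988 and 0.554). Around all 10 members, 17 of 18 neighbouring protein-coding genes were measured, and limma called 0 of them (1 at an unadjusted p under 0.05). That gene was Pltp, next to Ctsa, which encodes phospholipid transfer protein. Its log2 signals were 6.68, 7.10 and 7.82 in Ets1-/- and 5.13, 4.18 and 2.44 in wild type, and the log2 fold change was 3.28 (adjusted p = 0.0543). The other measured neighbours lay between -0.67 and 0.48.

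RefSeq promoter windows (GRCm38.p6, 250 bases before to 50 bases after the start) were found for 8 of the 10 members. Ctsb and Ctsh were not matched. They are shown for the adjacent pair, for Grn, and for Ctsd and Ctsl as members that did not pass the test. Capitals mark 3 short motifs of 6 letters, searched on both strands: CACGTG, the core recognised by the TFEB and MITF family of lysosomal gene regulators, and GAGGAA and GGAAGT, which both contain the GGAA core of ETS factors. The last 2 motifs overlap in the run ACTTCCTC of Ctss. The windows, each 5′ to 3′ on the gene's strand, are chr3:95526536-95526835 (plus strand) for Ctss, chr3:95498960-95499259 (plus) for Ctsk, chr11:102430257-102430556 (plus) for Grn, chr7:142387778-142388077 (minus) for Ctsd and chr13:64370471-64370770 (minus) for Ctsl.
Ctss: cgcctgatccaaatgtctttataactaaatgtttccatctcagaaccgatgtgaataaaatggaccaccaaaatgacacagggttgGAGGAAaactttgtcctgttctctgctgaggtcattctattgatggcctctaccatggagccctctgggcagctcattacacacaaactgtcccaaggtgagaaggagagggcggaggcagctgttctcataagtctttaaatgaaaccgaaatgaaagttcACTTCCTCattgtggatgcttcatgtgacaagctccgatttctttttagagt
Ctsk: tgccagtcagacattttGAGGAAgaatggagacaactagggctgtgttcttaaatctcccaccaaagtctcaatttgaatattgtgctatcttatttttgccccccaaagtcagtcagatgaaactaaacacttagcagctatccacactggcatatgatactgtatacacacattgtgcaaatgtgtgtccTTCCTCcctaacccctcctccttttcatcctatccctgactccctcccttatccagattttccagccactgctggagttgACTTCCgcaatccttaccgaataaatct
Grn: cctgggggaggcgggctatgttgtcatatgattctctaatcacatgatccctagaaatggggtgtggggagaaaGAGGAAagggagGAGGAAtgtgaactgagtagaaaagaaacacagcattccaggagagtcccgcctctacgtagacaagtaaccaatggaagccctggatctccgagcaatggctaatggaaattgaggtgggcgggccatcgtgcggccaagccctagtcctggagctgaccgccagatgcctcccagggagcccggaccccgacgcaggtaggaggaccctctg
Ctsd: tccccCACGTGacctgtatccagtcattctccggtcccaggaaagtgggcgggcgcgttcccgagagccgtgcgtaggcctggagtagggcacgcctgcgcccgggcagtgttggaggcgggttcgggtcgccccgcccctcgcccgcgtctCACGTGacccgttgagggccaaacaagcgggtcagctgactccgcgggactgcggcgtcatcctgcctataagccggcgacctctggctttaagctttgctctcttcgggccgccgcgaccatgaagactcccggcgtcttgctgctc
Ctsl: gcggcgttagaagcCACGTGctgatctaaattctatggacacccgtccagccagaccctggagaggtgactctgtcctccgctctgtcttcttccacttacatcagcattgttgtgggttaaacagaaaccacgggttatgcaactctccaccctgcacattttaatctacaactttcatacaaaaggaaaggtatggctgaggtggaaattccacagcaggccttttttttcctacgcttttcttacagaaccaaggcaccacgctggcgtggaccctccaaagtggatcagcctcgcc

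Ctsa had 2 windows and the other 7 members 1 each. The CACGTG motif stood in the windows of Ctsd and Ctsl and in 1 of the 2 windows of Ctsa, and was not found in those of Ctss, Grn, Ctsc, Ctsk and Ctsz. Members with and without it are thus both found among those that did not pass the test. In Ctsd it began 245 and 98 bases before the start, and in Ctsl 236 bases before it. Of all 32851 promoter windows of this length, 7.15% held it. GAGGAA or its reverse complement stood in the windows of Ctsc, Ctsk, Ctss and Grn, and in 28.3% of all windows. GGAAGT or its reverse complement stood in those of Ctsc, Ctsk and Ctss and in 1 of the 2 of Ctsa, and in 23.8% of all windows. In Ctss the run ACTTCCTC began 2 bases before the start. Ctsk, which was not called, held as many matches as Ctss (2 of GAGGAA and 1 of GGAAGT), and a match is a description of letters, not a binding site.

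Other genes of the lysosome were examined from lists of their functions. Of 14 other cathepsins, the nearest relatives of the members, 0 were called by limma (1 at an unadjusted p under 0.05), where 1.29% of all genes rose and 0.568% fell. With shares this small, a count of 0 does not set the 14 apart from all genes. Their median log2 fold change was -0.35, against -0.22 for all genes. Many of these cathepsins are known from placenta, and 9 of the 14 lay below the median of all probe sets. Ctsq and Ctsll3 came closest to the threshold, with log2 fold changes of -4.12 and -0.68 (adjusted p = 0.268 and 0.417). The value of Ctsq rests on the low end of the scale, since its means were -3.31 in Ets1-/- and 0.81 in wild type, and it was called lower in 1 of 6 fits that left out 1 array.

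Of 9 other lysosomal peptidases, 2 rose and 0 fell, with a median log2 fold change of 0.92 and 5 at an unadjusted p under 0.05. All 3 Ets1-/- values lay above all 3 wild-type values for 6 of the 9, and for 5.76% of all genes. Under the other settings and fits 1 to 5 of these peptidases rose. Legumain, encoded by Lgmn, cuts after asparagine and processes several cathepsins to their mature cleaved forms. It had log2 signals of 7.54, 7.57 and 7.91 in Ets1-/- and 4.55, 4.56 and 3.98 in wild type, and the log2 fold change was 3.31 ± 0.26 (SE; adjusted p = 0.00100). The serine carboxypeptidase Scpep1 rose by 3.26 (adjusted p = 0.00937), or by 1.62 with a pseudocount of 16. Lgmn was called under all 13 other settings and without any 1 of the 6 arrays.

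Among 11 measured inhibitors of cysteine cathepsins, 2 rose and 0 fell, with a median log2 fold change of -0.18 and 6 at an unadjusted p under 0.05. The 3 Ets1-/- values lay all above wild type for 4 of the 11 and all below for 2. In mean level, 5 of the 11 lay below the median of all probe sets. Under the other settings and fits 0 to 4 of these inhibitors rose. Cst7, or cystatin F, an inhibitor of Ctsc in cytotoxic and myeloid cells, averaged 6.13 ± 0.26 in Ets1-/- and 4.89 ± 0.12 in wild type (SD, n = 3 each; limma adjusted p = 0.0474). The stefin Stfa3 averaged 2.38 ± 0.97 in Ets1-/- and -0.20 ± 0.33 in wild type (SD, n = 3 each; limma adjusted p = 0.0405). Both means of Stfa3 lay below the median of all probe sets, and its log2 fold change of 2.58 was 0.37 with the pseudocount. Each of the 2 calls was lost in most of the fits that left out 1 array, Cst7 keeping it in 1 and Stfa3 in 2 of 6.

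Most other genes of the lysosome's machinery did not pass the test, and how many did depended on the setting. Of 26 measured glycosidases, sulfatases, lipid hydrolases and activators, 1 rose: Hexa, a subunit of beta-hexosaminidase, by 2.09 on the log2 scale (adjusted p = 0.0253), in a list whose median was 0.22 and of which 8 had an unadjusted p under 0.05. Hexa kept its call in 3 of 6 fits that left out 1 array, and 0 to 7 genes of the list rose under the other settings and fits. Of 20 lysosomal membrane proteins, 2 rose. The tetraspanin Cd63 rose by 3.06 (adjusted p = 0.00402) and the macrophage glycoprotein Cd68 by 2.15 (adjusted p = 0.0124), while the list's median was 0.23, 5 of its genes had an unadjusted p under 0.05, and 0 to 5 rose under the other settings and fits. Of 17 measured subunits of the vacuolar proton pump, which acidifies the lysosome, limma called 0 (3 at an unadjusted p under 0.05). Atp6v0d2, a subunit of macrophages and osteoclasts, and Atp6v0a2 came closest, with log2 fold changes of 2.77 and -0.86 (adjusted p = 0.0748 and 0.152). Atp6v0d2 was called under 8 of 12 other settings and Atp6v0a2, as lower, under 5 of 13. Of 13 genes that sort hydrolases to the lysosome, limma likewise called 0 (2 at an unadjusted p under 0.05), with Sorl1 and Gnptab closest at log2 fold changes of 0.87 and 0.78 (adjusted p = 0.238 and 0.307). Up to 3 sorting genes rose under the other settings, Gnptab under 5 of 13.

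Of the 4 MiT transcription factors of lysosomal genes, Tfec, which is expressed in macrophages, rose by 2.53 on the log2 scale (adjusted p = 0.0330). It lost its call in 5 of 6 fits that left out 1 array.

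The substrates and partners of the cathepsins were measured too. Of 10 measured genes of MHC class II and its loading, 6 rose and 0 fell, with a median log2 fold change of 2.87. Under the other settings and fits 1 to 7 of them rose. Cd74, the gene of the invariant chain itself, was not among the genes measured. The class II chains H2-Aa, H2-Eb1 and H2-Ab1 rose by 3.48, 4.11 and 3.65 on the log2 scale. Ifi30, the lysosomal thiol reductase that opens disulfides of antigens, rose by 3.26 (adjusted p = 0.00299), and the peptide editor H2-DMa by 2.23 (adjusted p = 0.00624). H2-DMb2 had a log2 fold change of 5.95 (adjusted p = 0.0472), but its wild-type SD was 2.65, and signal of its close copy H2-DMb1 may be shared. It kept its call in 1 of 6 fits that left out 1 array and under 8 of 12 other settings, with log2 fold changes from 3.50 to 7.47.

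Of 11 serine protease precursors that Ctsc activates, 1 rose: granzyme Gzmb, by 4.53 on the log2 scale (adjusted p = 0.000578), or by 2.56 with the pseudocount. The median of this list was -0.03. Of 5 genes of endosomal Toll-like receptors, whose ectodomains cathepsins and legumain cut, Unc93b1, the chaperone that brings them to the endosome, rose by 4.35 (adjusted p = 0.0187), or by 2.50 with the pseudocount. Its call was lost in 3 of 6 fits that left out 1 array.

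**Figure D3:**
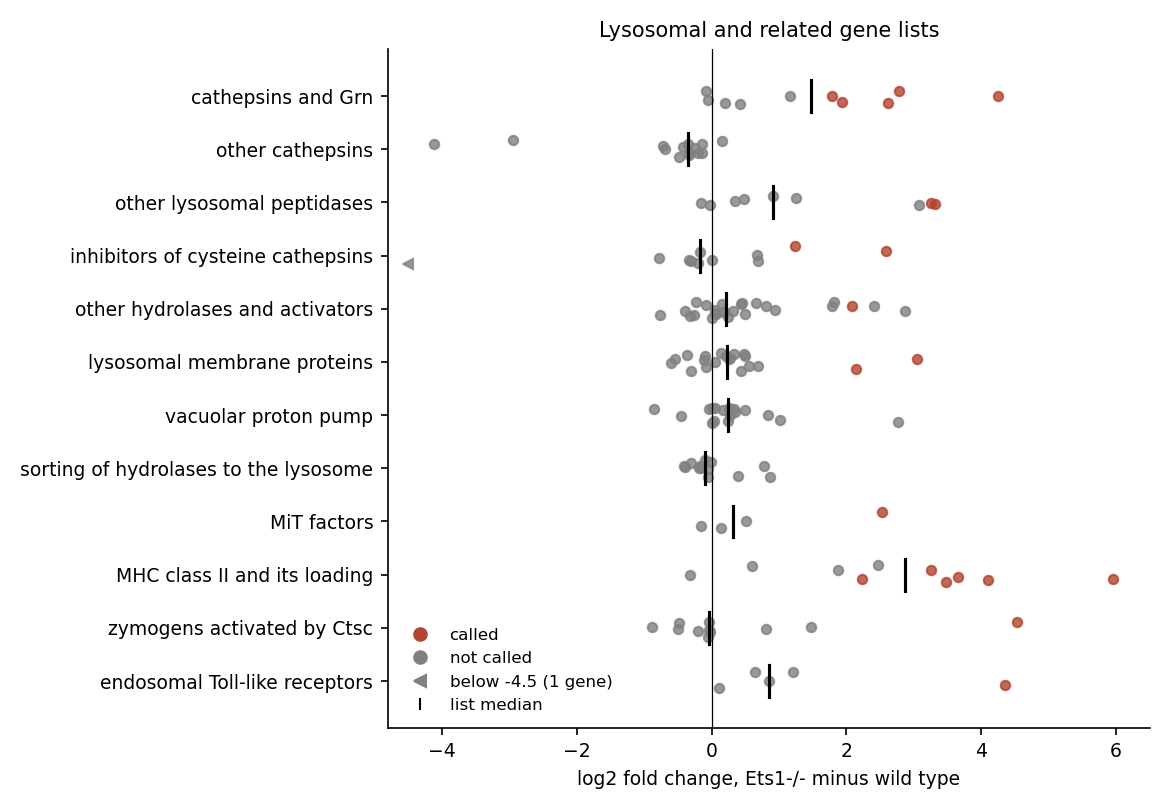
Log2 fold change, Ets1-/- minus wild type, of the 10 members (cathepsins and Grn) and of each measured gene of 11 lists of lysosomal and related genes. Red marks genes past the limma threshold, the black bar the median of each list, and the triangle 1 gene below the axis, Stfa2 at -7.47 (not called). Called genes are all above 0, and 0 of the other cathepsins, proton pump and sorting genes are called. Over all genes, 1.29% rose and 0.568% fell.

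Many macrophage and B-cell markers were higher in Ets1-/-, as the called members were. Of 14 measured macrophage markers 10 rose and 0 fell, where 1.29% of all genes rose, with log2 fold changes from 0.04 to 3.31. Under the other settings and fits 1 to 11 of these markers rose. Their summed linear signal was 3199 to 4400 in Ets1-/- and 666 to 811 in wild type. Csf1r, C1qa, Mpeg1, C1qb, Fcgr1 and Mrc1 were the 6 with the strongest evidence, at log2 fold changes of 3.31, 2.85, 3.05, 2.32, 3.04 and 2.83. The markers Cd14, Cd163 and Timd4 had means below the median of all probe sets in both groups and log2 fold changes of 0.13, 0.16 and 0.04. With a pseudocount of 16 the log2 fold change of Fcgr1 was 1.92. Of 8 B-cell markers 5 rose (1 to 8 under the other settings and fits). The list's summed signal was 369 to 736 in Ets1-/- and 72.0 to 94.3 in wild type. The markers that rose were Fcrla, Ms4a1, Cd79a, Ebf1 and Blk, with log2 fold changes of 3.05, 6.14, 4.20, 2.08 and 2.99. With the pseudocount these were 1.51, 2.39, 2.51, 0.65 and 0.80, and those of Ebf1 and Blk were not called. Leaving out 1 array kept the call of Ebf1 in 1 and of Blk in 2 of 6 fits. Ms4a1 had a wild-type mean of 0.04, far below the median of all probe sets, so its size is set by the low end of the scale.

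Dendritic-cell markers were mixed. Of 10 measured, 2 rose, Irf8 by 2.51 and Itgax by 3.67 on the log2 scale, and 0 fell, but the list's median log2 fold change was -0.02. Xcr1, a marker of one dendritic-cell subset, had a log2 fold change of -1.15 (limma adjusted p = 0.266), and those of Zbtb46, Batf3, Cd209a, Ccr7 and Flt3 lay between -0.38 and 0.03. Siglech and Cd83 were at 0.81 and 0.97 and were not called. Itgax was at 2.28 with the pseudocount and kept its call in 3 of 6 fits that left out 1 array. The list's summed signal was 430 to 702 in Ets1-/- and 293 to 350 in wild type. Irf8 and Itgax carried most of that difference, and the summed signal of the other markers overlapped between the groups. The part of macrophages, B cells and dendritic cells in the cathepsin and progranulin differences was not tested.

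The lists for the other cell types in which these proteases are well known had 0 called members by limma. Neutrophil markers (8 measured, 1 at an unadjusted p under 0.05) had a summed signal of 62.7 to 83.4 in Ets1-/- and 63.4 to 127 in wild type, with Ltf at a log2 fold change of -1.12 and Ngp at -1.02. Natural killer markers (6 measured, 2 at an unadjusted p under 0.05) summed to 297 to 574 in Ets1-/- and 195 to 308 in wild type, with Klrd1 at 1.24 and Prf1 at -0.56. Most of that sum was Gzma, which is also in the list of precursors that Ctsc activates. Klrd1 had an adjusted p of 0.0578 and was called under 7 of 11 other settings. Thymic epithelial markers (7 measured, 1 at an unadjusted p under 0.05) summed to 116 to 202 in Ets1-/- and 143 to 163 in wild type, with Ly75 at 0.83 and Foxn1 at -0.46. These 3 lists thus overlapped between the groups in summed signal.

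Osteoclast markers, set beside Ctsk, summed to 422 to 524 in Ets1-/- and 391 to 499 in wild type (6 measured, 0 at an unadjusted p under 0.05), with Tnfrsf11a at -0.40 and Dcstamp at -0.41. Most of that sum was Acp5, which is also in the list of lysosomal hydrolases. Fibroblast markers summed to 38.5 to 72.4 in Ets1-/- and 67.1 to 77.1 in wild type (7 measured, 0 at an unadjusted p under 0.05), with Col1a1 at -0.49 and Pdgfrb at -0.46. All 7 fibroblast markers lay below the median of all probe sets. The double-positive markers, by contrast, summed to 19652 to 20702 in Ets1-/- and 19924 to 20705 in wild type.

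**Figure D4:**
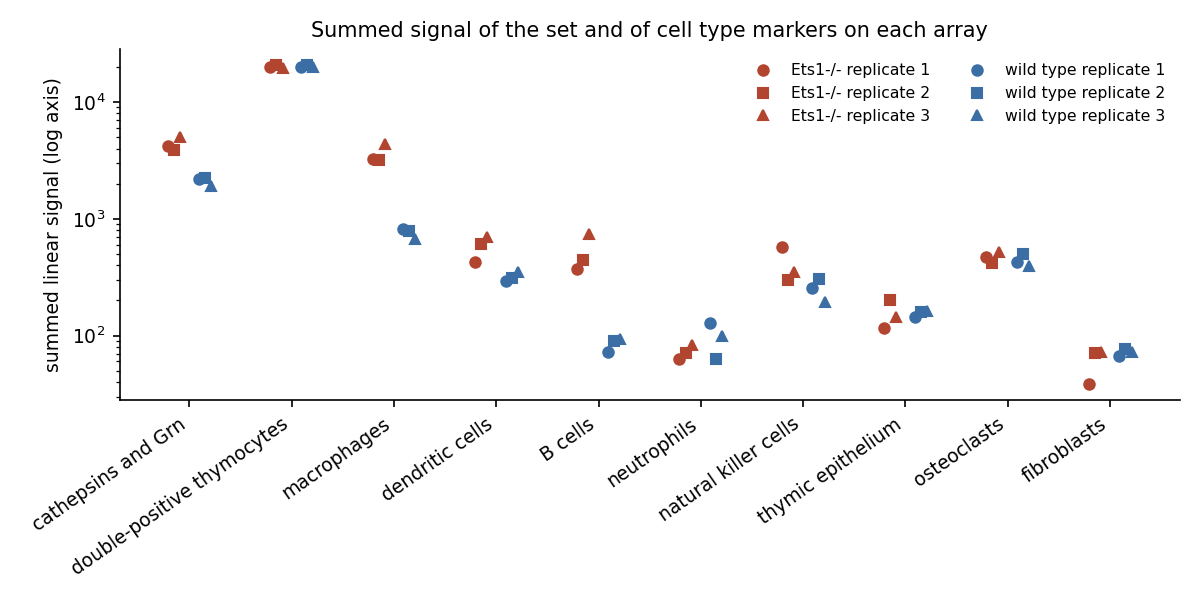
Summed linear signal (log axis) of the 10 members (cathepsins and Grn) and of 9 lists of cell type markers on each array, with Ets1-/- left of wild type. The set, the macrophage, dendritic-cell and B-cell lists lie higher in all Ets1-/- arrays, while the double-positive list spans 19652 to 20705 over all 6 arrays. The dendritic-cell sum differs mostly through Irf8 and Itgax, and that list's median log2 fold change was -0.02.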

How the data were processed

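RNA of 3 Ets1-/- and 3 wild-type samples was measured on single-channel Affymetrix arrays. The authors deposited log2 values of 41345 probe sets, a scale inferred from their range. The package affy is named per the submitters' processing notes; no source used here gives the background correction, the normalization or the build. The number of arrays limits the precision.

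The platform annotation gave 1 gene for 23521 probe sets, several for 1814 and none for 16010. The brightest probe set by mean of the 6 arrays stood for each of 22180 genes. RefSeq's gene table (GRCm38.p6) served for symbols (0 changed) and for neighbouring genes. The model was fitted in limma 3.58.1 (R 4.3.3, lmFit then eBayes, two-sided, no covariate) as Ets1-/- minus wild type, with Benjamini-Hochberg adjustment over all genes and a threshold of 0.05. SE are moderated. An exact permutation test of 3 against 3 cannot go below p = 0.1 and was not used. The fit was tested on simulated data with the spreads shuffled among genes. Any link between low signal and wide spread was not kept there, so that test does not cover it. Python 3.11.15 with pandas 2.3.3, matplotlib 3.10.9 and numpy 2.4.6 made tables and plots.

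The members, the 20 further gene lists (216 of 231 entries measured) and the tests were chosen with earlier results of these data known. Named are all members, Ets1 and, of each list, up to 6 called genes with the smallest p, or otherwise 2; neighbours and genes named beyond this were chosen after their values were seen. Summed signals add linear values (2 to the power of the log2 value). Alternatives were averaging a gene's probe sets, testing all probe sets, filters at the median and 75th percentile, quantile normalization, median centring, cyclic loess, a pseudocount of 16, a trended robust prior, array weights, no moderation, a replicate block, and leaving out each array. Quantile normalization after the pseudocount was added after seeing the data.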

Additional observations from a re-analysis of the deposited data

How the results depend on the processing

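With 3 arrays per group smaller changes could hardly pass, and dim signals such as Ctsk and wild-type Ctsh have sizes set by the low end of the scale. The filters removed Ctsk (both) and Ctsh (75th percentile), which then have no value. For Ctss and Grn, 12 of 13 alternatives and all 6 fits without 1 array kept the direction and the call. The number of genes called, 413 (287 higher, 126 lower), was 798 with quantile normalization, 745 with median centring, 777 with cyclic loess, 907 with the pseudocount of 16 (484 higher, 423 lower), 1172 with the trend and robust prior (618 higher, 554 lower), 1019 with array weights, 56 without moderation and 1355 with pseudocount and quantile normalization together (757 higher, 598 lower), and 190 to 379 without 1 array. With signal above the 75th percentile the split was 231 higher and 310 lower. The number of members that rose, 5, was 2 with all probe sets as features, 0 without moderation (where 37 of all genes rose), and 2 to 4 without 1 array. It was 6 under 8 alternatives. The number that fell was 0 under every alternative run.

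The calls of Ctsb (1.79), Ctsc (1.94) and Ctsh (4.25) ended with all probe sets as features and without moderation, and those of Ctss (2.78) and Grn (2.62) ended without moderation. The fold changes do not change there, only the spread or the number of tests. Ctsz passed with both filters (1.16), quantile normalization (1.28), median centring (1.38), cyclic loess (1.30), the pseudocount (1.06), the trend and robust prior (1.16), array weights (1.25), and pseudocount with quantile normalization (1.16). Without 1 array, log2 fold changes ran from 1.51 to 2.04 for Ctsb, 1.69 to 2.09 for Ctsc, 3.67 to 4.97 for Ctsh, 2.63 to 2.92 for Ctss, 2.47 to 2.78 for Grn, 0.97 to 1.32 for Ctsz, 0.28 to 0.51 for Ctsa, 0.13 to 0.30 for Ctsd, -0.38 to 0.20 for Ctsk and -0.11 to 0.035 for Ctsl. The sign of Ctsk turned with quantile normalization (0.15), median centring (0.12), cyclic loess (0.18), array weights (0.14) and pseudocount with quantile normalization (0.064), and without Ets1-/- replicate 1 (0.20) or wild-type replicate 1 (0.031). That of Ctsl turned with median centring (0.16) and cyclic loess (0.0081) and without wild-type replicate 1 (0.035), and that of Ets1 with median centring (0.11) and without Ets1-/- replicate 3 (0.049), where Ets1 ran from -0.19 to 0.049 without 1 array. None of these passed the test, and the cause of these changes was not tested.

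Same-numbered arrays did not deviate together (correlations of their deviations from the group means of -0.07, -0.01 and -0.05), and the main fit did not pair them. Such correlations over all genes cannot settle whether same-numbered arrays came from the same litter. With the replicate number as a block, 311 genes and 3 members (Ctss, Grn and Ctsh) were called, with Ctsb and Ctsc at 1.79 and 1.94 past the threshold no longer.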
